A study of Mus musculus with 7 samples.

Results

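The regions described here are promoter sites at which the vitamin D receptor (VDR) was called after hormone and not after vehicle. The peaks of 6 libraries were merged into 86995 regions wherever they overlapped by at least 1 bp on chromosomes 1 to 19 and X. Of these, 4687 had a peak in all 3 hormone libraries and in none of the 3 vehicle libraries, and 888 of the 4687 had their centre within 1 kb of an annotated transcription start of a protein-coding gene. These 888 hormone-only promoter regions were selected on the presence and absence of peaks, so that contrast itself is a description and carries no test. The same rule gave 1366 regions without vehicle replicate 3, 1600 without hormone replicate 1 and 258 when every list was cut to the length of the shortest.

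VDR was measured by chromatin immunoprecipitation and sequencing (ChIP-seq) in epithelial cells released with EDTA from duodenum and jejunum. All mice were wild type, ate standard chow and were 8 weeks old. The treated mice received the active vitamin D hormone, 1,25(OH)2D3, at 10 ng per g body weight, and the controls received vehicle, with tissue taken 1 h later in both groups. Each group had 3 libraries, and 1 input library without a peak list of its own entered no comparison. The input is labelled with the hormone dose, and the peaks of both groups were called over input. The labels do not tie each library to its own mouse, so p-values and spreads describe these libraries and may be technical in part.

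VDR is a nuclear receptor that binds DNA mainly as a heterodimer with the retinoid X receptor (RXR). Its classical element is a pair of hexamers in the same orientation with a spacer of 3 bases, called a DR3. In the proximal intestine, VDR and its hormone are known for raising the uptake of calcium and phosphate from food, and enterocytes are the main absorptive cells there. Promoters of mammalian genes fall broadly into CpG-rich ones, often at housekeeping genes, and CpG-poor ones, more often at tissue-restricted genes.

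The libraries differed in ways that touch every presence or absence. The vehicle libraries held 15991198 to 68560701 sequence tags and the hormone libraries 17152461 to 66524392, with replicate 3 the deepest in both groups. The vehicle lists held 8756, 14888 and 48425 peaks and the hormone lists 25510, 30390 and 41722. The share of tags inside called peaks was 2.58%, 4.81% and 8.10% in the vehicle libraries and 11.86%, 15.89% and 18.96% in the hormone libraries, so the groups did not overlap in it. The part of these differences in the membership of the 888 regions was not tested. "Hormone-only" therefore means that no vehicle peak was called there, not that no receptor was bound. No expression was measured, so the labelled cell type could not be checked by marker levels. As a description, promoters of the enterocyte genes Fabp2 and Alpi each had a peak in 3 hormone libraries and 1 vehicle library, Vil1 in 2 hormone libraries and Sis in 1. The promoters of Lct, of the Paneth cell gene Lyz1, of the enteroendocrine gene Chga and of the immune genes Ptprc and Cd3e had none. Of the goblet cell genes, Muc2 had 2 regions, with peaks in 2 hormone libraries, and Tff3 had 1 region, in 1 hormone library.

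The sequences at the front of the peak lists show what DR3 elements look like in these promoters. Each line below gives a DR3 within 100 bp of the region's centre, from build mm9, read 5′ to 3′ on the strand named, with the hexamers of the element in capitals. The first group holds the members highest in the lists among those with an element of at most 1 mismatch in its 12 defined bases. Ptprj encodes a receptor-type protein tyrosine phosphatase, Timm17a a subunit of the mitochondrial inner membrane translocase, Atp5d the delta subunit of mitochondrial ATP synthase, Cenpa the centromeric histone H3 variant, Myo1d an unconventional myosin and B4galt5 a galactosyltransferase.
Ptprj (chr2:90319895-90319939, plus strand): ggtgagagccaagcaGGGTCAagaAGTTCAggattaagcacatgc
Timm17a (chr1:137210486-137210530, plus strand): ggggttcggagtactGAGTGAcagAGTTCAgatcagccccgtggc
Atp5d (chr10:79605405-79605449, plus strand): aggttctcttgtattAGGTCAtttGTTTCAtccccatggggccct
2200002K05Rik (chr9:15043496-15043524, minus strand): gtactctGGTTCAaccAGTTCCcaggaca
Cenpa (chr5:30968856-30968900, plus strand): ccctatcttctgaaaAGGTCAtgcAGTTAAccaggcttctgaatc
Myo1d (chr11:80593110-80593154, minus strand): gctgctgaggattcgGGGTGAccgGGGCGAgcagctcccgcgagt
B4galt5 (chr2:167173853-167173897, plus strand): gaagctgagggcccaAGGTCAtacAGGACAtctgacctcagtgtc
Pitpnm1 (chr19:4113100-4113144, minus strand): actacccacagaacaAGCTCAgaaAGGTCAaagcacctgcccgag
Mif4gd (chr11:115474219-115474247, plus strand): cccgctcAGGTGAactAGGTCAgactctc
D19Bwg1357e (chr19:27504385-27504429, plus strand): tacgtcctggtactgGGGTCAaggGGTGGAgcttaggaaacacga
Of these 10, Ptprj and Mif4gd matched the element in all 12 defined bases and the other 8 had 1 mismatch. The elements in 2200002K05Rik and Mif4gd lay in untranslated exon sequence and are shown with shorter flanks. Near the 2200002K05Rik member was a region called in all 6 libraries (chr9:15044055-15044369), at a mean list percentile of 99.8. It also held a DR3 with 1 mismatch, and the nearest vehicle peak lay 422 bp from the member's edge.

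The second group shows elements at genes of mineral transport and gut identity that are described further on. Atp2b1 encodes the plasma membrane calcium pump that moves calcium out of enterocytes into the body, Isx an intestine-specific homeobox factor and Slc34a3 a sodium-phosphate cotransporter. Each carried 1 mismatch, and those of Isx and Slc34a3 lay in untranslated exon sequence.
Atp2b1 (chr10:98377455-98377499, plus strand): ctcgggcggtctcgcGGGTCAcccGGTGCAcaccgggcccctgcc
Isx (chr8:77396963-77396991, plus strand): gaagctgGGTTGAggaAGTCCAgaagggc
Slc34a3 (chr2:25090231-25090259, plus strand): ggctctgAGGTCAgcaGATTCAaatctga
The last group holds further members with a match in all 12 defined bases. Golph3 encodes a Golgi protein that binds phosphatidylinositol 4-phosphate, Tlr5 the receptor for flagellin, Acot5 an acyl-CoA thioesterase, Dvl1 a Wnt signalling protein, Gstm1 a glutathione transferase and Atp5j a subunit of the mitochondrial ATP synthase.
Golph3 (chr15:12251481-12251509, minus strand): ctccgctGGGTCAgcgAGGTCAtggctcc
Tlr5 (chr1:184885117-184885161, minus strand): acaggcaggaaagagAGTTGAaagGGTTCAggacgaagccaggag
Acot5 (chr12:85410026-85410070, minus strand): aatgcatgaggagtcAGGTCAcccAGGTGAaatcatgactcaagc
Dvl1 (chr4:155222716-155222760, minus strand): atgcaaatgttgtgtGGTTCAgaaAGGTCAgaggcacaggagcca
Gstm1 (chr3:107819097-107819141, plus strand): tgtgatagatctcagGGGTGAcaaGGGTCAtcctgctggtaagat
Atp5j (chr16:84829633-84829677, minus strand): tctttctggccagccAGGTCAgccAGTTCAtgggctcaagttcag
The Golph3 element lay partly in a UTR and is shown with shorter flanks. In all, 19 of the 888 members had a match in all 12 defined bases, and their mean list percentiles ran from 97.3 at Ptprj to 15.7 at Npepps.

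Most members had no such element. The whole 201-base windows of Timm17a and Elmod2, the next members in the lists after Ptprj, show the contrast. In Timm17a the capitals mark the DR3 and an NF-Y box (CCAAT). The Elmod2 window, on a gene for a GTPase-activating protein, held no DR3 with fewer than 3 mismatches and none of the GC box, NF-Y, ETS or CRE sequences described further on, so nothing in it is in capitals.
Timm17a (chr1:137210412-137210612, plus strand): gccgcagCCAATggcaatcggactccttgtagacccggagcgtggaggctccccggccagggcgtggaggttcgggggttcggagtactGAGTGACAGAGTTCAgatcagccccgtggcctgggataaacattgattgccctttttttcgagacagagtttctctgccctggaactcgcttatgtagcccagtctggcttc
Elmod2 (chr8:85856473-85856673, plus strand): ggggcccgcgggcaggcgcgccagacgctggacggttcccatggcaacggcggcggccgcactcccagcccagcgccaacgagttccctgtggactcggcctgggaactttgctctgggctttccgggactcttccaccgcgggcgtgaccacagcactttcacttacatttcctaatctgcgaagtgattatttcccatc

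Membership was read in libraries that had not been used to choose it. For each replicate number, hormone-only promoter regions were chosen on the other 4 libraries and then looked up in the left-out pair. Without replicate 1, 1687 regions were chosen, of which 56.2% (Wilson 95% interval 53.8 to 58.5) had a peak in hormone replicate 1 and 5.16% (4.20 to 6.32) in vehicle replicate 1. Without replicate 2, 1307 regions were chosen, and the shares were 80.9% (78.7 to 82.9) and 15.1% (13.2 to 17.1). Without replicate 3, 1509 regions were chosen, and the shares were 90.3% (88.7 to 91.7) and 32.2% (29.9 to 34.6). In all 3 pairs the hormone library held more of the regions than the vehicle library, by 51.0, 65.8 and 58.1 percentage points. Promoter regions with a peak in any of the other 4 libraries showed an excess too, with 40.3%, 51.9% and 67.0% in the left-out hormone libraries and gaps of 27.4, 32.2 and 35.2 points. These and the other intervals below cover counting error only, and all intervals on shares are Wilson 95% intervals.

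The vehicle share depended on which library was read. Among those promoter regions of any class, the left-out vehicle library held 12.9%, 19.7% and 31.8%, so the deep vehicle replicate 3 read the hormone-only class (32.2%) at about the share it had for any promoter region. For replicate 1, 5.16% lay below 12.9%, with intervals that did not overlap (12.2 to 13.6 for the latter), and for replicate 2, 15.1% lay below 19.7% (18.8 to 20.6). Promoter regions present in all of the other 4 libraries had a peak in the left-out vehicle library in 59.7%, 76.2% and 87.3% of cases. The call of no vehicle peak was thus least often repeated in vehicle replicate 3.

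**Figure D1:**
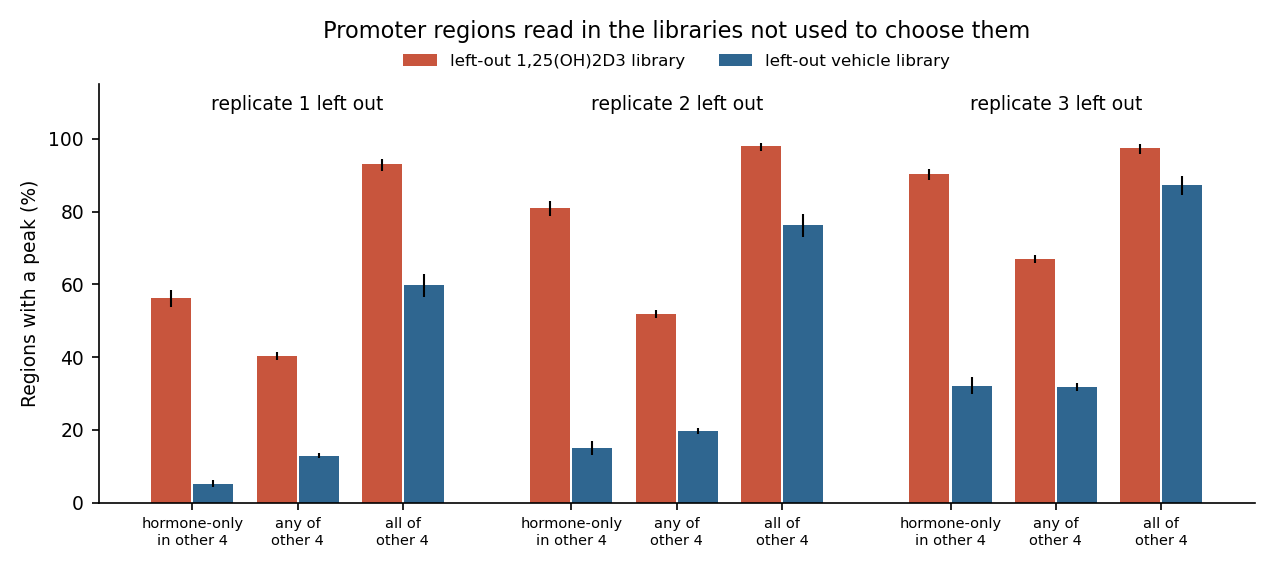
Share of promoter regions (vertical axis, %) with a peak in the left-out hormone library (red) and the left-out vehicle library (blue), for regions chosen on the other 4 libraries as hormone-only, as present in any of them, or as present in all of them; bars start at 0 and lines are Wilson 95% intervals. Hormone-only regions read 56.2% to 90.3% in the left-out hormone libraries and 5.16% to 32.2% in the left-out vehicle libraries.

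Because the rule removed every region overlapped by a vehicle peak, distances to vehicle peaks are a description. A vehicle peak lay within 100 bp of the region's edge for 7 members, within 500 bp for 51 and within 1000 bp for 104 (11.7%, 9.76 to 14.0). The 7 included regions at Tle1, a transcriptional corepressor, and Snx3, a sorting nexin. Conversely, 716 promoter regions with peaks in all 3 hormone libraries had a peak in exactly 1 vehicle library, which was replicate 1 for 63 of them, replicate 2 for 180 and replicate 3 for 473. Another 1081 promoter regions had peaks in 2 hormone libraries and no vehicle library, and 365 of them had one in hormone replicate 1, 853 in replicate 2 and 944 in replicate 3.

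Hormone-only regions lay at promoters more often than regions called in every library. Of the 4687 hormone-only regions, 18.9% (17.8 to 20.1) had their centre within 1 kb of a start, against 519 of the 4345 regions in all 6 libraries, or 11.9% (11 to 12.9). The difference was 7.0 percentage points (Newcombe 95% interval 5.52 to 8.48). It was 4.10 points without vehicle replicate 2 and 19.7 points with lists cut to equal length (33.9% against 14.1%). Among regions with peaks in all 3 hormone libraries, the promoter share was 18.9% with no vehicle library, 14.7% with 1, 13.8% with 2 and 11.9% with 3. The most similar class, with peaks in 2 hormone libraries and no vehicle library, was at promoters in 17.9% of cases (16.9 to 18.9). All regions outside the hormone-only class together were there in 9.65% of cases, a pool in which 35048 regions of 1 vehicle library alone had 4.11%. The 519 promoter regions of all 6 libraries are called shared promoter regions from here on, and serve as the main comparison for the 888.

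Per library, promoter peaks made up 13.6%, 12.8% and 6.46% of the vehicle peaks and 14.9%, 15.7% and 13.8% of the hormone peaks. Each hormone library was above each vehicle library, with means of 14.8% ± 0.938 (SD, n = 3) and 11% ± 3.91 (SD, n = 3). The difference of 3.83 points gave p = 0.1 in an exact two-sided permutation test, the smallest value that 3 against 3 can give. It was 2.08 points over replicates 1 and 2 and 7.33 points in replicate 3, and it fell to 1.58 points without vehicle replicate 3, whose list is the longest. The members are part of the hormone lists and of no vehicle list, so this difference is not independent of their selection. With the members left out, the hormone shares were 11.8%, 13.2% and 11.9%, and the groups overlapped. The difference was then 1.36 points, with p = 0.9 in the same exact permutation test. Leaving them out takes promoter peaks from the hormone lists only, so neither value is free of the selection.

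Members held a DR3 less often than the shared promoter regions. A DR3 with at most 1 mismatch lay within 100 bp of the centre of 137 of 888 members, 15.4% (13.2 to 18.0), and of 139 of 519 shared promoter regions, 26.8% (23.2 to 30.8). The difference was -11.4 points (Newcombe 95% interval -15.9 to -6.93). A match in all 12 defined bases was found in 2.14% of members and 5.59% of shared promoter regions, a difference of -3.45 points (-5.89 to -1.40). With 2 mismatches allowed, 55.6% of members and 70.3% of shared promoter regions had one. The shared promoter regions stood higher in the peak lists, and these differences are not matched for list position, which is described further on.

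The element was still several times as frequent in members as around them. Windows of the same length 500 bp to either side of the members held it in 66 of 1776 cases, 3.72%, which was 11.7 points below the members (9.28 to 14.4). The same search found it in 3.99% of the 69930 annotated protein-coding starts and in 3.58% of 22322 windows on the outermost start of each gene. Promoter regions called in 2 hormone libraries and no vehicle library had it in 9.53% of cases (7.92 to 11.4), and those called in 1 hormone library alone in 8.39% (7.38 to 9.53). Promoter regions called in 1 vehicle library alone had it in 5.06% (4.05 to 6.32). By its DR3 share the class of 888 therefore sat above promoter regions called in fewer hormone libraries, and below those shared by every library.

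Among promoter regions called in all 3 hormone libraries, the DR3 share was 15.4% with no vehicle library, 15.5% (13.0 to 18.3) with 1, 18.0% (15 to 21.5) with 2 and 26.8% with 3. The first 3 shares had overlapping intervals, and the step came between 2 and 3 vehicle libraries. Away from promoters the hormone-only regions had a higher share than the members, 827 of 3799 or 21.8%, a difference of -6.34 points (-8.94 to -3.51). At matches in all 12 bases that difference was -0.993 (-1.97 to 0.290), an interval that holds 0. Over single libraries the groups overlapped: the DR3 was in 15.7%, 13.2% and 11.7% of vehicle promoter peaks and in 15.9%, 12.6% and 12.2% of hormone promoter peaks. The means differed by 0.0142 points, with p = 1 in the exact permutation test of 3 against 3. With lists cut to equal length the means were 17.8% and 14.5%, a difference of 3.29 points with p = 0.1 in the exact test, the smallest it can give.

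**Figure D2:**
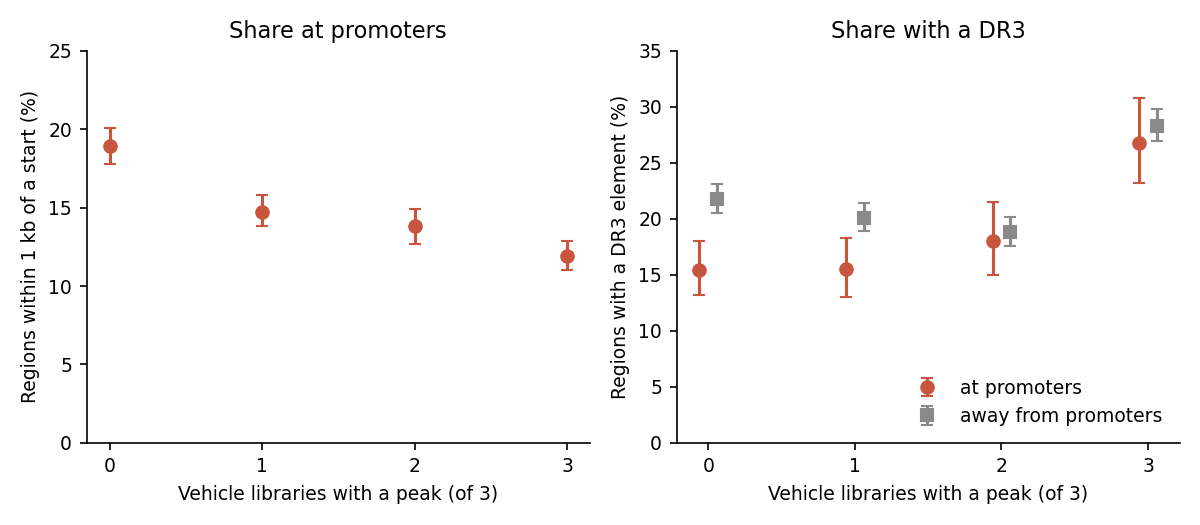
Regions with peaks in all 3 hormone libraries, by the number of vehicle libraries with a peak (horizontal axes). Left: share within 1 kb of a protein-coding start (%), which was 18.9% with no vehicle library and 11.9% with 3. Right: share with a DR3 of at most 1 mismatch (%), at promoters (red circles, 15.4% to 26.8%) and away from them (grey squares); lines are Wilson 95% intervals.

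Elements lay near the region centres in both classes. Of the 137 members with a DR3, 87 (63.5%, 55.2 to 71.1) had its centre within 50 bp of the region's centre, and the median offset was 39.0 bp. The median offset in shared promoter regions was 32.0 bp. These offsets were bounded by the 201 bp window, and among equal matches the element nearest the centre was taken. They alone do not show central placement, and the bins that follow reach beyond that window. In bins of 40 bp, the members' share peaked at 4.39% in the bin just right of the centre and lay between 0.45% and 1.46% in every bin more than 160 bp from it. In the shared promoter regions it reached 9.63% at the centre. The 3 hormone peak centres of 1 region lay farther apart in members, with a median range of 69.5 bp, than in shared promoter regions, with 40 bp.

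**Figure D3:**
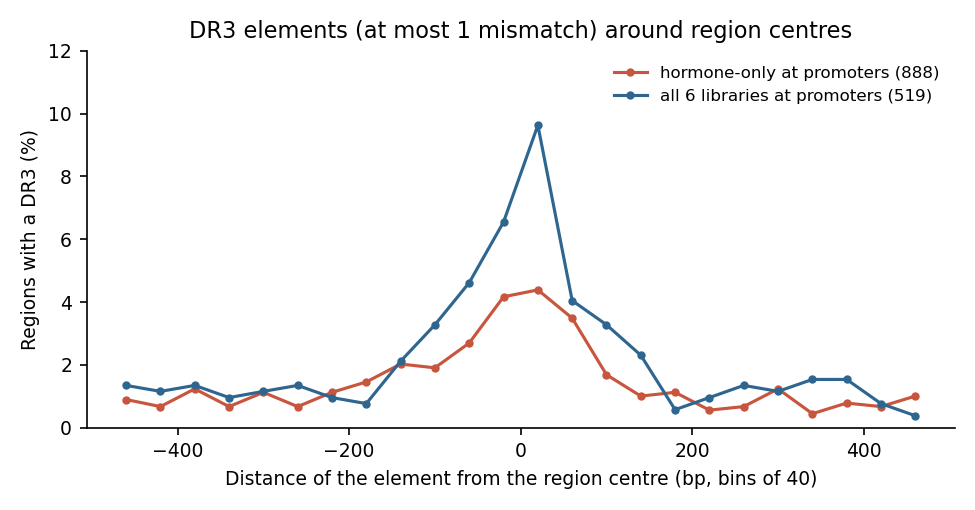
Share of regions (vertical axis, %) with a DR3 of at most 1 mismatch in each 40 bp bin of distance from the region centre (horizontal axis, bp; negative values lie at lower genome coordinates), for the 888 members (red) and the 519 shared promoter regions (blue). The centre bin reaches 4.39% in members and 9.63% in shared regions, and members stay at 1.46% or less beyond 160 bp.

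Members were CpG-rich more often than shared promoter regions, and at the full lists as often as protein-coding starts in general. A window was called CpG-rich when its CpG content was over 0.6 times that expected from its bases and its GC content over 50%. This held for 389 members, 43.8% (40.6 to 47.1), and for 43.8% of all protein-coding starts, a difference of -0.0175 points (-3.27 to 3.29). Shared promoter regions were CpG-rich in 33.1% of cases (29.2 to 37.3), 10.7 points below the members (5.40 to 15.8). The gap was 6.27 points without vehicle replicate 2, 16.4 without hormone replicate 1 and 20.4 with lists cut to equal length, where 55.0% of members were CpG-rich. Hormone-only regions away from promoters were CpG-rich in 2.05%. The median GC content was 57.7% in members, 57.7% at all starts and 53.2% in shared promoter regions.

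CpG-rich members held a DR3 less often than the rest. The DR3 was found in 35 of 389 CpG-rich members, 9.0% (6.54 to 12.3), and in 102 of 499 other members, 20.4% (17.1 to 24.2), a difference of -11.4 points (-15.9 to -6.80). The gap between members and shared promoter regions was present in both kinds of window: -13.1 points (-20.3 to -6.66) among CpG-rich ones and -8.67 points (-14.6 to -2.78) among the others. Members within 250 bp of a start held the element in 12.7% of cases and those farther away in 18.3%, a difference of -5.64 points (-10.4 to -0.877). These splits, and the flanking windows above, were chosen after seeing the data.

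Of 14 other promoter sequences searched as exact letters on both strands of the same windows, 4 differed between members and shared promoter regions with an interval widened over the 14 to 99.64%. The GC box GGGCGG, bound by Sp and KLF factors, was in 280 members (31.5%) and in 19.5% of shared promoter regions, 12.1 points apart (5.03 to 18.6). All protein-coding starts had it in 34.5% and the members' flanks in 21.2%. The NF-Y box CCAAT was in 17.3% of members and 25.6% of shared promoter regions (-8.28, -15.1 to -1.75), with 23.8% at all starts. A GATA factor motif, AGATAA, was in 7.77% and 15.6% (-7.84, -13.5 to -2.75), and 5.44% of starts. The CDX motif TTTATNG, for the caudal-type factors of intestinal epithelium, was in 6.31% and 12.1% (-5.83, -11 to -1.28), and 5.01% of starts. In those last 2 motifs of gut factors, and in the GC box, the members' shares were nearer to those of starts in general than to those of shared promoter regions. For the other 10 sequences the interval held 0. They included the ETS (CCGGAAG), NRF1 (GCGCNTGCG), CRE (TGACGTCA), YY1 (AAGATGGCG), AP-1 (TGANTCA), HNF4 (CAAAGTCCA), KLF (GGGNGTGG), E-box (CACGTG) sequences and the AT-rich core promoter box (TATAAA). The KLF and GC box letters can overlap on the same bases.

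Against their own flanks, members held more of 4 sequences with the widened interval above 0. They were the GC box, the ETS sequence (6.53% against 2.76%), the NRF1 sequence (3.15% against 1.35%) and the KLF sequence (14.1% against 10.0%). A match is a description of letters in a window and not a bound site. Flanks lie at other distances from the start than members do, so the comparison is also one of distances.

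Members lay close to starts, on either side of them. The median distance from centre to nearest start was 238 bp, and 24.7% lay within 100 bp, 51.5% within 250 bp and 73.2% within 500 bp. Shared promoter regions had a median of 257 bp, and the differences in these shares had intervals that hold 0. The sides differed: 437 members (49.2%, 45.9 to 52.5) were upstream of the nearest start against 59.3% of shared promoter regions (55.1 to 63.5), a difference of -10.1 points (-15.4 to -4.74). Only internal starts, not the outermost start of the gene, were within 1 kb of 210 members (23.6%) and of 29.9% of shared promoter regions (-6.22, -11.1 to -1.45). The centre fell between genes for 286 members, in an intron for 348, in a UTR for 173 and in another exon for 81. Starts on both strands were within 1 kb of 73 members (8.22%) and of 7.51% of shared promoter regions, a difference with an interval that holds 0 (-2.36 to 3.51).

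At the 1 kb limit itself, the members just inside were regions at Siah2 (998 bp), Hdac11 (996 bp) and Ppp6r1 (996 bp). The hormone-only regions just outside were at 2310014H01Rik (1001 bp), Zmynd8 (1002 bp) and Snx1 (1004 bp). Their mean list percentiles of 52.4, 67.3 and 52.5 inside and 48.0, 55.6 and 22 outside are given as a description. Other regions were also near: 38.4% of members had a region of all 6 libraries within 50 kb (35.3 to 41.6), as did 42.6% of shared promoter regions (38.4 to 46.9) and 26.8% of all starts. Another hormone-only region lay within 50 kb of 44.4% of members, 43.4% of shared promoter regions and 31.4% of starts.

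The deposited lists give no tag count or height per peak, so the position of a peak in its own list was used to order the members. A percentile of 100 is the first peak of the list, and what value the order follows is not stated. The members' median percentile was 62.6 in hormone replicate 1, 64.0 in replicate 2 and 73.2 in replicate 3. Over the 3 lists the mean percentile had a median of 66.3, an interquartile range of 50.6 to 78.1 and a full range from 6.40 at H2-Q7 to 97.3 at Ptprj. Shared promoter regions stood higher, with a median of 92.4, and hormone-only regions away from promoters lower, with 47.2. The order of the 888 members was alike in the 3 lists, with Spearman correlations across regions of 0.85, 0.86 and 0.91. The regions are not independent replicates and the libraries share the input used for calling.

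The DR3 share did not climb with list position in members. It was 14.6% (40 of 274) in members with a mean percentile of 75 or more and 10.6% (42 of 397) from 50 to 75. It was 21.6% (38 of 176) from 25 to 50 and 41.5% (17 of 41, 27.8 to 56.6) under 25. Shared promoter regions had it in 29.4% of cases (127 of 432) at 75 or more. At that position the members were 14.8 points below shared promoter regions (-20.6 to -8.59), while their difference of -2.44 points from hormone-only regions away from promoters had an interval that holds 0 (-7.58 to 3.14). Members with a DR3 stood lower in each hormone list than members without, with medians of 54.3 and 63.2 in replicate 1, 56.4 and 64.7 in replicate 2, and 67.3 and 73.5 in replicate 3. This was not particular to members. Hormone-only regions away from promoters had the same order, with medians of 35.2 and 46.3 in replicate 1, 30.0 and 45.0 in replicate 2, and 49.5 and 58.6 in replicate 3. In shared promoter regions the order was the other way in each list, with 94.9 and 89.9 in replicate 1.

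The highest members in the lists came from many kinds of genes. Ptprj led, with a region at chr2:90319725-90320050, 560 bp upstream of a start in an intron, at percentiles 97.0, 96.9 and 98.0 in hormone replicates 1, 2 and 3. Timm17a followed with a region at chr1:137210358-137210665, 156 bp upstream of the gene's start, at 96.2, 95.8 and 97.8. Elmod2 had one at chr8:85856423-85856722, 188 bp upstream, at 94.8, 96.4 and 98.5. For each of these 3 the libraries lay within 4 percentile points of one another. Further values given in this form are percentiles in hormone replicates 1, 2 and 3, in that order.

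Parp16, which transfers ADP-ribose to proteins at the endoplasmic reticulum, had percentiles of 94.1, 96.6 and 96.6. Atp5d, of the ATP synthase, had 96.0, 94.5 and 96.6 with its region 258 bp downstream of the start in an intron. Cables2, named for a substrate of Cdk5 and Abl kinases, had 93.8, 93.6 and 95.2. A region at chr7:54050887-54051252 lay near starts of 2 genes. Its centre was 4 bp downstream of the start of Hps5, a subunit of a complex for lysosome-related organelles. The same centre was 404 bp upstream of the start of Gtf2h1, a subunit of the general factor TFIIH. The region stood at 90.3, 92.7 and 97.7, lowest in replicate 1, and cannot be assigned to either gene.

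Several of the next members belong to metabolism. Por, the reductase that passes electrons to microsomal cytochrome P450 enzymes, had a region at chr5:136164374-136164704 with percentiles of 90.8, 92.8 and 95. It also had a second member at another start, with 57.4, 51.8 and 69.4. Cyp4f14, a P450 of fatty acid hydroxylation, stood at 87.9, 93.7 and 92.3, Ccbl2, a kynurenine aminotransferase, at 90.7, 92.8 and 95.8, and B4galt5 at 88.2, 92.4 and 94.4. Cox18, which helps insert a cytochrome oxidase subunit into the inner membrane, closed the first 20 with 86.0, 88.1 and 96.3. The others of the 20 were 2200002K05Rik, Ppp1r1b, an inhibitor of protein phosphatase 1, Cenpa, Chd2, a chromatin remodeller, Myo1d, Lactb2, Pitpnm1, a phosphatidylinositol transfer protein, and Mesdc2, a chaperone of the endoplasmic reticulum. Of the 20, 8 had a DR3 with at most 1 mismatch, 11 were CpG-rich and 11 lay upstream of the nearest start.

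**Figure D4:**
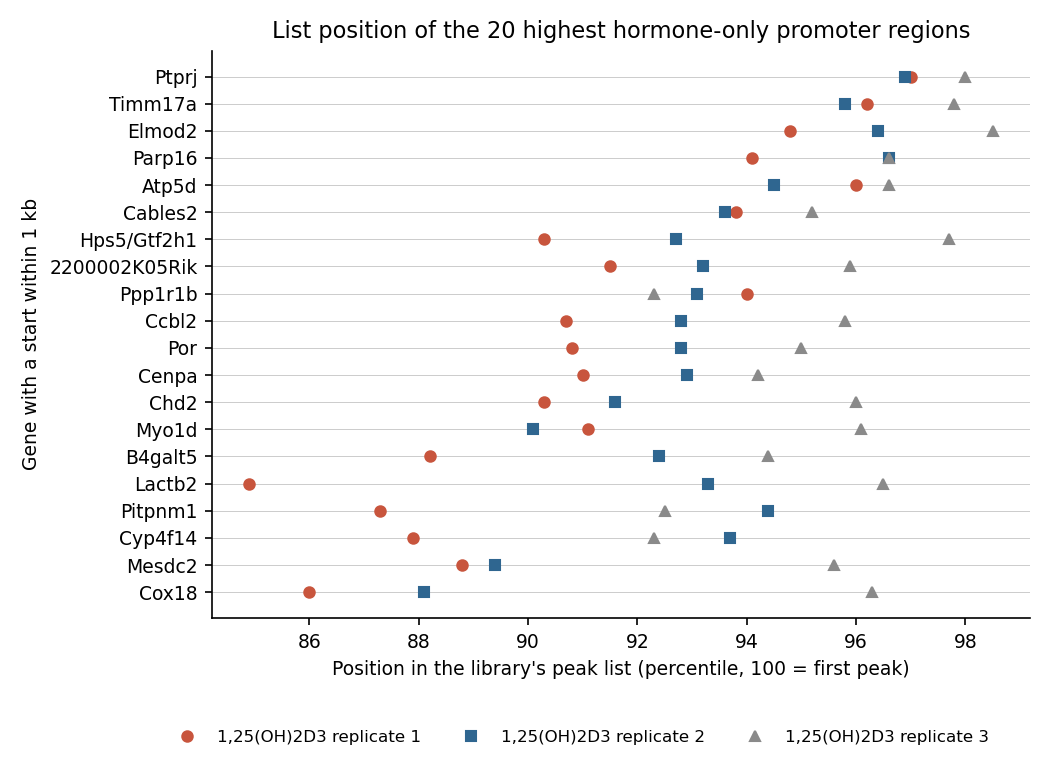
Position in the peak list (horizontal axis, percentile, 100 = first peak; the axis does not start at 0) of the 20 members with the highest mean percentile in hormone replicate 1 (red circles), 2 (blue squares) and 3 (grey triangles); rows are named by the genes with a start within 1 kb. Replicate 3 stands highest for most of them, and Ptprj, at 97.0, 96.9 and 98.0, leads.

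In all, 942 of 22350 protein-coding genes (4.21%) had a hormone-only region at a start, because 80 of the 888 regions were near starts of more than 1 gene. For comparison, 552 genes (2.47%) had a shared promoter region, and of the 2698 genes with any region of all 3 hormone libraries at a start, 942 (34.9%) had a hormone-only one. The counts of list genes below are descriptions to be read against 4.21%, since the members were selected on this contrast. A total of 31 gene lists were counted, and 205 of the 942 genes were in any of them.

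Calcium pumps and a calcium channel were among the members. Of 29 calcium transport genes, 3 had a member (10.3%, 3.58 to 26.4, beside 4.21% for all genes). Atp2b1, the calcium pump, had a region at chr10:98377334-98377646, 296 bp upstream of a start in a CpG-rich window. It stood at percentiles 79.5, 80.3 and 89.2, with the DR3 13 bp from its centre shown above, and the nearest vehicle peak was 16412 bp away. Orai1, the pore of the store-operated calcium channel, shared a region at 75.9, 79.5 and 84.2 with a start of Kdm2b, a histone demethylase gene, and Atp2b4, another calcium pump, stood at 42.3, 30.6 and 49.7. Neither had a DR3 with fewer than 3 mismatches.

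Of 23 genes listed under the vitamin D pathway, 3 had a member (13.0%, 4.54 to 32.1). The list was drawn broadly, and 1 of the 3, Klb, is not a vitamin D gene by the role given here. They were Cyp27a1, a mitochondrial sterol hydroxylase that can also 25-hydroxylate vitamin D (71.5, 76.2 and 81.8), Ncoa3, a nuclear receptor coactivator (70.6, 74.0 and 73.3), and Klb, a co-receptor for hormones of the FGF family (63.5, 47.0 and 60.4). The classical target Cyp24a1, the enzyme that inactivates the hormone, was not among the members: its region, 253 bp upstream of the start, was shared by all 6 libraries and stood at a mean percentile of 100. The closest DR3 there had 2 mismatches, so the search with at most 1 mismatch counted none. A region without a counted DR3 can therefore still be a VDR site.

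Metal and phosphate transport had 5 of 50 genes (10.0%, 4.35 to 21.4) with a member, and 4 with a shared promoter region. Of its 16 genes with a region of all 3 hormone libraries at a start, 31.2% had a hormone-only one, beside 34.9% for all genes. Tfrc, the transferrin receptor, stood at 66.8, 76.6 and 84.6, and Slc39a5, a zinc transporter, at 69.8, 59.2 and 76.5. Slc34a3, the phosphate cotransporter, stood at 52.9, 50.4 and 56.1, and Slc11a2, the iron transporter of the apical membrane, at 44.6, 26.6 and 45.8. The fifth, Slc39a14, was among the lowest members at 1.6, 19.7 and 33.9.

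Factors that define intestinal epithelium had 5 of 27 genes with a member (18.5%, 8.18 to 36.7) and 0 with a shared promoter region. Isx, which regulates vitamin A uptake genes, had a region at chr8:77396778-77397182 in a UTR, at 68.8, 76.4 and 82.4, with a DR3 3 bp from the centre. Hnf4a, a nuclear receptor of gut and liver, stood at 67.8, 74.0 and 71.7. Gata5 stood at 57.5, 66.8 and 73.7, and Foxa2, a forkhead factor, at 18.4, 14.3 and 20.8. Of the 11 genes of this list with any region of all 3 hormone libraries, 5 (45.5%) had a hormone-only one, beside 34.9% for all genes.

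Lipid and sterol synthesis had the highest share of the 31 lists, 9 of 46 genes (19.6%, 10.7 to 33.2), beside 3 genes (6.52%) with a shared promoter region. Of the 11 genes with a region of all 3 hormone libraries at a start, 9 had a hormone-only region (81.8%). Srebf1, the master transcription factor of lipid synthesis, had one at chr11:60036322-60036723, 440 bp upstream of a start, at 74.9, 89.7 and 89.2. A separate shared region lay 197 bp downstream of another Srebf1 start, with a DR3 matching in all 12 defined bases. Acsl1, an acyl-CoA synthetase, stood at 58.1, 78.4 and 76.4, and Fdft1, squalene synthase, at 63.8, 61.5 and 78.2. Members were also found at Agpat9, Agpat3, Elovl1, Elovl5 and Insig2, which act in glycerolipid synthesis, fatty acid elongation and sterol sensing.

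Mitochondrial genes were counted in 4 lists. Carriers and fatty acid oxidation had 12 of 66 genes (18.2%, 10.7 to 29.1), and 2 with a shared promoter region. Of the 21 with a region of all 3 hormone libraries at a start, 57.1% had a hormone-only one, beside 34.9% for all genes. The oxidation enzymes Eci1 (78.1, 84.0 and 87.2), Decr1 (76.9, 80.6 and 90.1) and Echs1 (81.6, 78.4 and 81.9) led, followed by the calcium-regulated carrier Slc25a24 at 75.5, 84.0 and 82.1. Hadh, Cpt2, Etfa and Acadsb, also of fatty acid oxidation, had members too. Protein import had 5 of 34 genes (14.7%, 6.45 to 30.1), Timm17a, Timm22, Tomm5, Timm13 and Timm23, and 0 with a shared promoter region. These 5 were all of its genes with a region of all 3 hormone libraries at a start.

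The respiratory chain had 11 of 105 genes (10.5%, 5.95 to 17.8) and 5 with a shared promoter region, and the hormone-only share of its genes with a region of all 3 hormone libraries was 32.4%. They included Atp5a1, Atp5b, Atp5c1 and Atp5d, which encode subunits of the catalytic F1 portion of ATP synthase, and Atp5j. Atp5b stood at 78.9, 79.2 and 91.0, Atp5a1 at 72.1, 57.1 and 69.6, Atp5c1 at 55.3, 59.6 and 66.4, and Atp5j at 6.6, 13.2 and 32.2. The 5 ATP synthase genes were picked out after their values were seen. Within them the gene lowest in the lists, Atp5j, held the element with all 12 bases matched, and Atp5d held one with 1 mismatch. Mitochondrial ribosome genes had 5 of 77 (6.49%, 2.81 to 14.3), led by Mrpl35, an interval that includes 4.21%, and 5 with a shared promoter region. The hormone-only share of mitochondrial ribosome genes with a region of all 3 hormone libraries was 27.8%, below the 34.9% of all genes.

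Ubiquitin enzymes, translation factors and chromatin modifiers had shares above 4.21%, with intervals that do not include it. That 4.21% counts every protein-coding gene, including genes without any region at a start. The hormone-only share was also read among genes with a region of all 3 hormone libraries at a start. It was 46.5% for ubiquitin enzymes (33 of 71) and 41.2% for translation factors (7 of 17). For chromatin modifiers it was 9 of 18, beside 34.9% for all genes. These narrower shares were not given intervals. Ubiquitin enzymes had 33 of 346 genes (9.54%, 6.87 to 13.1), led by Ube2f, a conjugating enzyme for NEDD8 (89.7, 79.6 and 89.4), and by the F-box genes Fbxw9, Fbxo30 and Fbxl8. The symbol pattern also took Uspl1, Ubac1 and Ubap2l. Translation factors had 7 of 67 (10.4%, 5.15 to 20), among them Eif4g3 and Eif6, with Eif2c3, an Argonaute gene, taken by its symbol. Chromatin modifiers had 9 of 101 (8.91%, 4.76 to 16.1), among them Chd2 and Smarcc2, and the metabolic gene Chdh taken by its symbol. Chd2 had 2 members at different starts, with percentiles of 90.3, 91.6 and 96.0 in a CpG-rich window and of 10.9, 16.5 and 31.3 in one that was not.

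For the lists of this paragraph other than olfactory receptors, the interval includes 4.21%. Aminoacyl-tRNA synthetases had 3 of 37 (Dars, Aars2, Wars2), spliceosome genes 8 of 143, led by Lsm4 and Dhx57, and RNA polymerase and Mediator genes 6 of 104, led by Gtf2h1 and Med15. Chaperones had 6 of 93, led by Dnajc17 and Dnajc5, ER and Golgi traffic 8 of 138, led by Sec24a and Arfrp1, and Rab and endosome traffic 9 of 190, led by Rabif and Rab11fip3. Cell cycle genes had 11 of 158, led by Cenpa and Ccnl1, solute carriers 20 of 370, led by Slc9a2, and zinc finger proteins 19 of 437, led by Zfp768. Proteasome genes had 2 of 52, lysosome and autophagy genes 2 of 60, ABC transporters 2 of 50, nuclear receptors 2 of 44 (Esrrg and Rarg) and DNA repair genes 2 of 109 (Parp16 and Fancc). Histones had 1 of 76, Hist1h2bm, and the cytosolic ribosome list 4 of 150, of which Rpl28 and Rpl18 encode ribosomal proteins while Rps6ka5 is a kinase gene taken by its symbol. Olfactory receptors had 0 of 1113, which allows a share of up to 0.344% by the Wilson interval.

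Genes of absorptive function and cell contacts had members at about the 4.21% of all genes. Of 28 enterocyte genes, 1 had a member (3.57%, 0.633 to 17.7), Dpp4, a brush border peptidase, at 53.7, 57.0 and 67.3. Of 47 tight junction and adhesion genes, 2 had one (4.26%, 1.17 to 14.2), Ocln, the tight junction protein occludin (57.9, 61.5 and 70.5), and Cldn23 (37.6, 35.3 and 52.4), beside 4 with a shared promoter region. All 3 genes had their own percentiles below the 75 mark in each library.

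**Figure D5:**
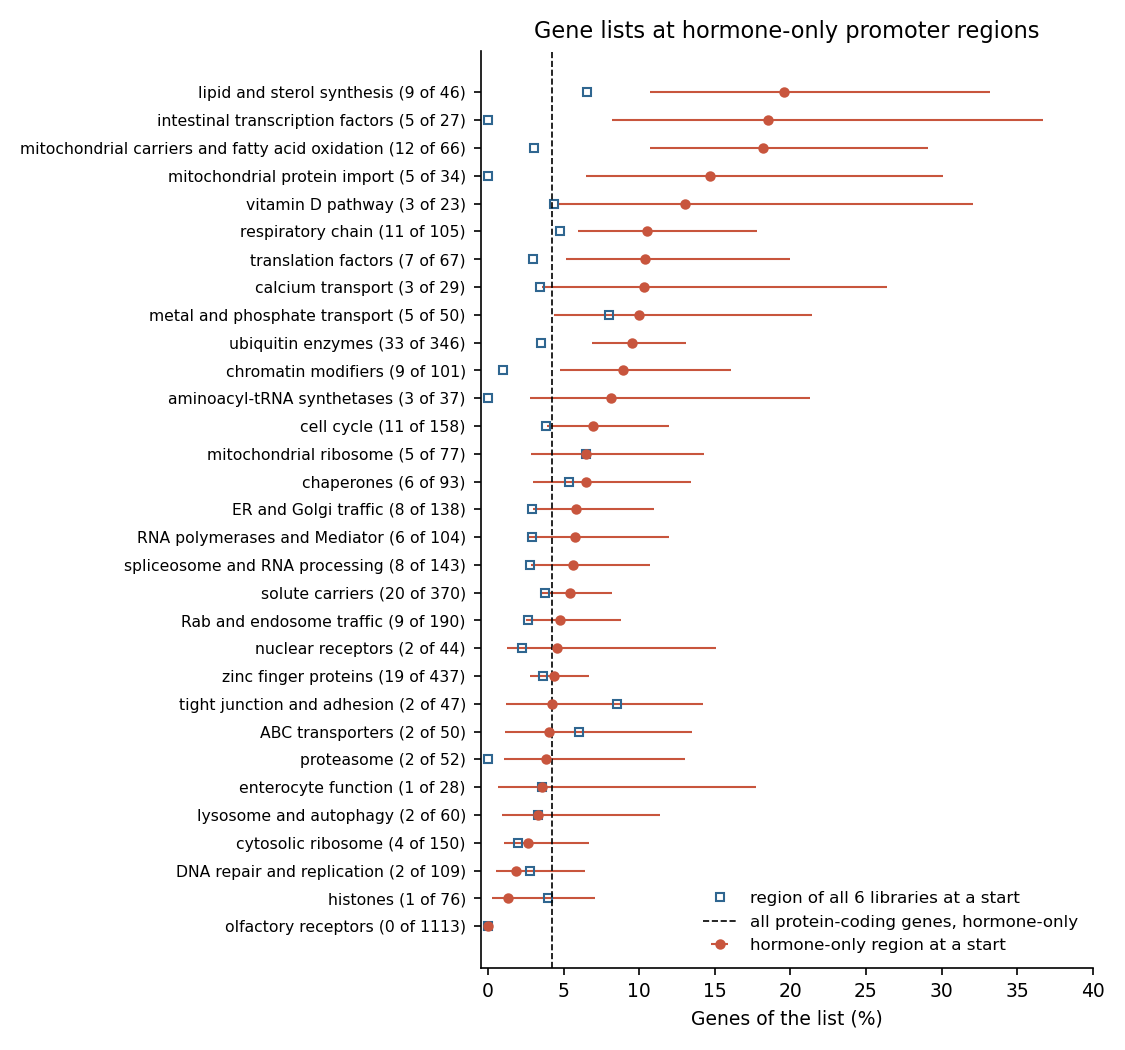
Share of the genes of each list (horizontal axis, %) with a hormone-only region at a start (red circles with Wilson 95% intervals) and with a shared region of all 6 libraries at a start (open blue squares); counts in brackets are genes with a hormone-only region of the genes in the list. The dashed line is 4.21% of all protein-coding genes, and lipid and sterol synthesis (19.6%) is at the top.

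In 26 genes 2 members lay at starts of the same gene. They were Abhd3, Arap1, Bmp2k, Btaf1, Ccdc30, Ccdc90a, Ces2c, Chd2, Dhx32, Exph5, Fgd4, Foxo6, Kdm2b, Lpp, Pitpnm1, Por, Rgs12, Sbno2, Sema4a, Siah2, Slc12a7, Tcfeb, Tle1, Tnk2, Trim5 and Xk. The regions of Tnk2, a non-receptor tyrosine kinase, stood at 87.5, 90.0 and 86.1 and at 57.8, 73.8 and 67.3. The 2 regions of Pitpnm1 stood at 87.3, 94.4 and 92.5 and at 71.6, 84.4 and 82.2. Tcfeb, a regulator of lysosome genes, had both at low positions, with 35.8, 37.9 and 34.2 and with 27.5, 26.6 and 52.3. In 26 genes a member and a shared region lay at starts of the same gene, among them 2200002K05Rik, Srebf1, Por, Tnk2, Slc27a2 and Nfyc.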

How the data were processed

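VDR ChIP-seq libraries from proximal small intestinal epithelium, 3 from vehicle and 3 from 1,25(OH)2D3 mice, were grouped by their titles. Per the submitters' processing notes, the authors used Bowtie, HOMER and build mm9, with no versions given. Per the file headers, peaks were called per library at a false discovery rate of 0.001, with at least 4 times the tags of the input and of the surrounding 10000 bp, and a Poisson p-value limit of 0.0001. The deposited files hold peak positions, and the deposited score is 1 for every peak, so it orders nothing. List order was used in its place, as a percentile within each list, although the value it follows is not stated.

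Peaks on chromosomes 1 to 19 and X were merged at 1 bp of overlap (Python 3.11.15, pysam 0.24.0, scipy 1.17.1), which left out 1, 1, 26, 1, 0 and 19 peaks. Starts were those of all transcripts of protein-coding genes in GENCODE mouse 1 (Ensembl 65, NCBI build 37, which is mm9). The DR3 VDR element of 15 bases, 12 of them defined, was searched on both strands of 201 bp windows with at most 1 mismatch, and 14 other sequences as exact letters. Merging, motif search and intervals were tested on simulated data. Shares have Wilson intervals, differences between region classes have Newcombe intervals, and libraries were compared by exact two-sided permutation. The intervals of the class comparisons were not adjusted for their number, except over the 14 sequences.

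Named genes were the 20 highest members in the lists, the 10 highest with a DR3, up to 4 per gene list, genes with 2 members, the 3 regions on each side of the 1 kb limit and all calcium and vitamin D list genes with a member. Some genes that this rule covers are not reported here. Genes named outside that rule were chosen after their values were seen. The members and lists were chosen with earlier results of these data known. The symbols Tfeb and Hmgcs1 were not found in the annotation. Alternatives were each replicate left out, equal-length lists, other start distances and sets, 100 bp of overlap, other mismatch limits, windows reaching 150 bp from the centre and a replicate block.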

Additional observations from a re-analysis of the deposited data

How the results depend on the processing

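Of 78 alternative values for 7 results, 66 were counted as the same. For the member count this meant a value within a set fold range of 888. For differences between region classes it meant the same sign and an interval that still left out 0. For results tested per library it meant the same sign only, because p could not fall below 0.1 in those exact tests. The count of 888 members became 258 when all lists were cut to the length of the shortest, 246 of them among the 888, and ranged from 951 to 1600 with 1 library left out, with 1366 without vehicle replicate 3 and 1600 without hormone replicate 1. The equal-length lists keep the first peaks of each list, so the 20 highest members were bound to stay in them. In all 11 settings, 11 of these 20 and 174 of the 888 were kept. Leaving out a vehicle library or widening the start distance to 2 kb only relaxed the rule, so all 888 members were bound to stay there. Leaving out a hormone library relaxed it too, and 876, 876 and 882 members stayed without hormone replicates 1, 2 and 3. Retention in those settings is therefore no measure of robustness. The gap in DR3 share to hormone-only regions away from promoters had an interval holding 0 with equal-length lists (-5.32, -10.7 to 0.566), with 0 mismatches (-0.993) and at list percentiles of 75 or more (-2.44). The difference in DR3 share between hormone and vehicle libraries, 0.0142 points, changed sign with 0 mismatches (-0.25), with 150 bp windows (-0.104) and without the members (-0.0525), and ranged from -1.14 to 1.10 with 1 library left out and was 3.29 with equal-length lists. It was below 0 without vehicle replicate 2 (-0.140), vehicle replicate 3 (-0.920) or hormone replicate 1 (-1.14). The cause of these changes was not tested. The promoter share gap of 7.0 points ranged from 4.10 to 7.29 with 1 library left out and was 19.7 with equal-length lists (33.9% against 14.1%). The DR3 gap to shared promoter regions ranged from -14.4 to -8.88 with 1 library left out, and the CpG-rich gap from 6.27 to 16.4, with 20.4 for equal-length lists. A replicate block, permuting signs within pairs of the same number, gave p = 0.25 for the promoter share (3.83 points) and p = 1 for the DR3 share (0.0142 points) in exact tests, where 0.25 is the smallest value possible. Same-numbered libraries did not deviate together (correlations of -0.05, 0.03 and -0.06 over 8827 promoter regions). Libraries of different numbers had correlations from -0.03 to 0.07. The labels state no pairing by number, and these values cannot settle whether there was one. Replicate 3 was the deepest library of both groups. Peak lists without tag counts limit what absence of a vehicle peak can show.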
